A study of Mus musculus with 17 samples.

Results

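The 9 genes described here mark the thick ascending limb of the loop of Henle, or do its work of salt and divalent cation transport, and were read by name from the deposited gene table of 42794 genes (Slc12a1, Kcnj1, Bsnd, Cldn10, Cldn16, Cldn19, Umod, Egf and Ppp1r1a). RNA of whole mouse kidney was sequenced in 17 libraries. Of these, 7 were labelled Gcgr shRNA, a short hairpin against the glucagon receptor gene Gcgr intended for cells of the proximal tubule, with titles that carry DKD, the abbreviation of diabetic kidney disease. Another 6 also carry DKD in their titles, with the genotype Ctr shRNA but the word Vehicle in the title, so that it cannot be said whether they had a control hairpin or vehicle alone. The last 4 were control kidneys of wild-type (WT) genotype, with NC in their titles. The DKD label is thus shared by both shRNA groups, and a difference of either from control holds the disease label and the agent given together, which cannot be told apart. Nothing in the sources used here gives strain, age, sex, the way in which the disease was induced, or the vector and promoter behind the hairpin. Each library is called by its group and its title number, and nothing in the labels assigns them to separate animals, so the p-values below measure the spread among these samples, which may be technical.

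The thick ascending limb takes up sodium, potassium and chloride from the tubule fluid without water. Slc12a1 (NKCC2), the target of loop diuretics, carries the ions across the apical membrane, Kcnj1 (ROMK) returns potassium to the lumen, and chloride leaves on the basolateral side through channels that need Bsnd (barttin). The lumen-positive voltage that results drives cations between the cells through pores formed by claudins, of which Cldn10 favours sodium while Cldn16 and Cldn19 act together in magnesium and calcium uptake. The same cells make uromodulin (Umod), the most abundant protein of normal urine, and are a main renal source of pro-epidermal growth factor (Egf). Ppp1r1a encodes inhibitor 1 of protein phosphatase 1, which is active when phosphorylated by the cAMP-dependent kinase.

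The sequences before the start sites of the 3 members with the lowest adjusted p in Ctr shRNA against control (Umod, Slc12a1 and Egf) are shown first, with both start regions of Cldn10, since the table holds a single value per gene and does not separate the Cldn10 starts. A RefSeq table of promoters (build GRCm38.p6) held 10 windows for 7 of the 9 members, each of 250 bases before and 50 after a start site. The 250 bases before the start are printed 5′ to 3′ on the strand of the gene, and capitals mark matches, on either strand, to GTTAAT (part of the site of the nephron factor HNF1) or CCAAT. The Umod stretch is chr7:119479263-119479512 (minus strand), that of Slc12a1 chr2:125152350-125152599 (plus strand), that of Egf, at the upstream of its start sites, chr3:129755323-129755572 (minus strand), and those of Cldn10 are chr14:118787621-118787870 and chr14:118854700-118854949 (plus strand).
Umod: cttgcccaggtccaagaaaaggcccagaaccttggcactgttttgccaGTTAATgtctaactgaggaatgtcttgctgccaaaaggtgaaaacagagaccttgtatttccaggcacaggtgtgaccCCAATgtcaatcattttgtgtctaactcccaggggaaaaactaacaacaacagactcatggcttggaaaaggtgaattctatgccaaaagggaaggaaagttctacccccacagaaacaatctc
Slc12a1: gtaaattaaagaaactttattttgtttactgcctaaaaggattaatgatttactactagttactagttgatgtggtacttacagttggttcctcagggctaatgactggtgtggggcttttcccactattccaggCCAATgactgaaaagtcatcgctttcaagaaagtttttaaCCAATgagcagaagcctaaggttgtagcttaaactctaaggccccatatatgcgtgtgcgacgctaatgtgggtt
Egf: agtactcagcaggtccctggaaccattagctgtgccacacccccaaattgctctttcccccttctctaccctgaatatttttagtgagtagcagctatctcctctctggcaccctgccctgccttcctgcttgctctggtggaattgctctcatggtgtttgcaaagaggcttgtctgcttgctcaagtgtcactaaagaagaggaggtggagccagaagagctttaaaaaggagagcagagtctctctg
Cldn10 upstream start: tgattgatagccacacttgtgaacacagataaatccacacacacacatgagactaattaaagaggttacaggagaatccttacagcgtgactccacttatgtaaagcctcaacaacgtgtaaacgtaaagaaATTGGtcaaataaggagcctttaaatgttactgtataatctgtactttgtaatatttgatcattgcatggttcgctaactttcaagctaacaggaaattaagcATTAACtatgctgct
Cldn10 downstream start: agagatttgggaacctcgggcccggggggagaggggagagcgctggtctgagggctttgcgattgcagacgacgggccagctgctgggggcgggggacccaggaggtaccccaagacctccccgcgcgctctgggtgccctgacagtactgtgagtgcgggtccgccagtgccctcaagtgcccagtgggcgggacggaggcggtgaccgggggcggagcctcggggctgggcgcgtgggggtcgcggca
Over the whole windows, GTTAAT occurred in 2 of the 10 member windows and in 7.10% of all 32851 windows of the table. The matches lay at position -202 from the Umod start and at -15 of the upstream Cldn10 start. CCAAT occurred in 4 of the 10, against 37.4% of all windows, at position -124 in Umod, -115 and -75 in Slc12a1, -135 in Kcnj1 and -118 in the upstream Cldn10 window. TGACG, part of a cAMP response element, occurred in 1 of the 10 (Kcnj1, position -81), against 20.8% of all. AAGGTCA (estrogen-related receptor), TATAAA and CACGTG occurred in 0 of the 10, against 4.72%, 13.6% and 7.15% of all windows. The motifs do not overlap one another in the member windows. The upstream Cldn10 window held 36.0% G and C, the downstream one 72.0%, and the median over all windows was 52.7%.

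The libraries held 13997657 to 17107876 reads, recovered from the deposited FPKM (fragments per kilobase of gene and library size), and 12183 to 12919 genes at 1 FPKM or more. Gcgr itself ranged over 11.02 to 15.7 FPKM in the libraries labelled Gcgr shRNA, 5.89 to 11.8 FPKM in Ctr shRNA and 18.3 to 23.8 FPKM in control. Relative to the Ctr shRNA libraries, those labelled Gcgr shRNA were thus higher in Gcgr, by 0.40 on the log2(FPKM + 1) scale (exact two-sided permutation p = 0.00641). In whole-kidney RNA this runs against the label. The direction of every comparison with "Gcgr shRNA" below rests on the label alone. One library, Ctr shRNA 20, stood apart, with a summed FPKM of 691 for 6 fat markers (10.02 to 29.7 in the other Ctr shRNA libraries) and of 176 for 6 urothelial markers (1.24 to 6.60), and each member's difference below is given without it where that changes a call, a direction or its size by over 1.5 times.

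Umod stood far above the other members in every library, and the 2 claudins of divalent cation uptake stood lowest. In the libraries labelled Gcgr shRNA, the mean FPKM ran in the order Umod (714), Slc12a1 (122), Ppp1r1a (113), Egf (63.9), Kcnj1 (57.6), Cldn10 (48.9), Bsnd (20.6), Cldn16 (10.1) and Cldn19 (6.83). FPKM is scaled by gene length, so these levels can be set beside each other, but only roughly. The length is a single value per gene, 11275 bases for Egf, which has 9 annotated transcripts, 3 of them coding. Control libraries had the same order, and there only the neighbours Slc12a1 and Ppp1r1a, and Cldn16 and Cldn19, overlapped in range. In Ctr shRNA the order was Umod, Ppp1r1a, Slc12a1, Cldn10, Kcnj1, Egf, Bsnd, Cldn16 and Cldn19. There Ppp1r1a and Slc12a1 overlapped and stood in either order in 3 of 6 libraries each, as did Kcnj1 and Egf.

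**Figure D1:**
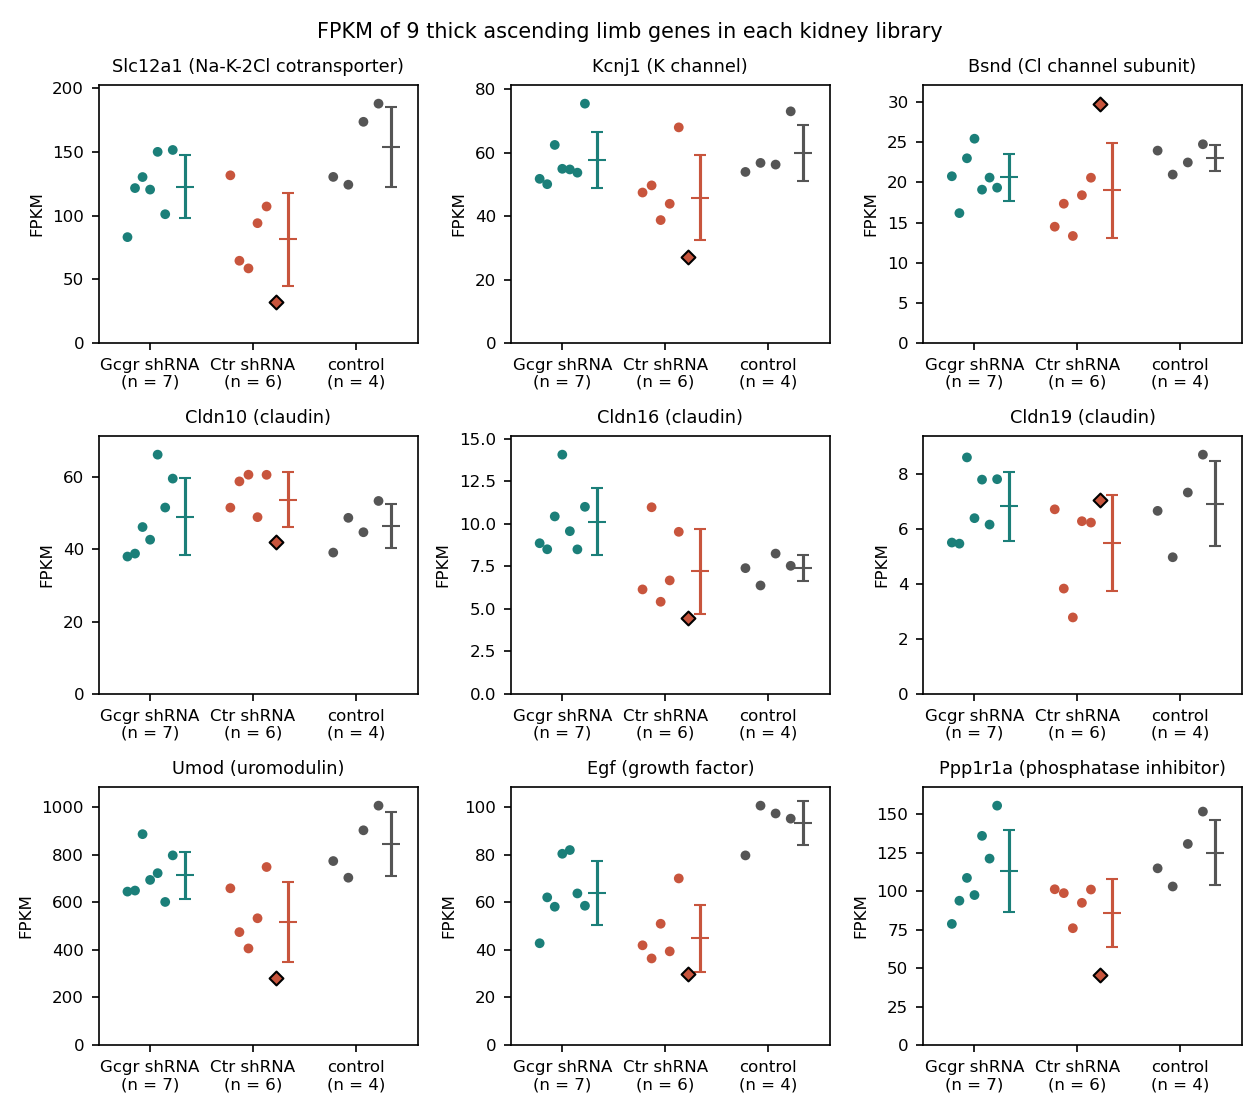
FPKM (vertical axis, linear, from 0) of the 9 genes in each library of the groups labelled Gcgr shRNA (n = 7), Ctr shRNA (n = 6) and control (n = 4), with the group mean and SD beside the points. The outlined diamond is Ctr shRNA 20, which is lowest for Slc12a1 (31.9) and Umod (283) and highest of all libraries for Bsnd (29.8), and the Egf points of Ctr shRNA (30.0 to 70.0) all lie under those of control (79.7 to 101).

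Both apical transport genes had their lowest mean in Ctr shRNA, and of the pair only Slc12a1 passed the test in any comparison. Slc12a1 (ENSMUSG00000027202, GRCm38 chromosome 2, 125152505 to 125230002, plus strand) had a lowest, median and highest level of 83.1, 122 and 151 FPKM in the libraries labelled Gcgr shRNA and of 31.9, 79.3 and 132 FPKM in Ctr shRNA. Control libraries 37, 38, 39 and 41 had 130.3, 124, 173 and 188 FPKM. All 6 Ctr shRNA libraries lay below the control median, but Ctr shRNA 1 lay above control 37 and 38, so the groups overlapped. Slc12a1 fell by 1.03 ± 0.29 in Ctr shRNA against control (difference of mean log2(FPKM + 1) ± SE, limma, adjusted p = 0.0422 over 13279 genes), to a mean of 81.3 FPKM, which is 0.528 times that of control. Between the shRNA groups, Gcgr shRNA minus Ctr shRNA, the difference was 0.70 ± 0.25 (limma, adjusted p = 0.533), and for libraries labelled Gcgr shRNA minus control it was -0.33 ± 0.28 (limma, adjusted p = 0.604). Without Ctr shRNA 20 the difference between the shRNA groups was 0.46 (limma, adjusted p = 0.620) and the fall against control was 0.79 (limma, adjusted p = 0.0426).

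The call for Slc12a1 against control was held by several single libraries. Its limma adjusted p was 0.0517 without Gcgr shRNA 15, 0.0795 without Ctr shRNA 4, 0.0786 without Ctr shRNA 6, and 0.0757, 0.0692, 0.122 and 0.102 without control 37, 38, 39 and 41. Kcnj1 (ENSMUSG00000041248, chromosome 9, 32372493 to 32399197, plus strand) ranged over 50.1, 54.7 and 75.5 FPKM in the libraries labelled Gcgr shRNA and 27.2, 45.7 and 68.0 FPKM in Ctr shRNA (lowest, median, highest). It had 53.9, 56.8, 56.2 and 73.0 FPKM in control 37, 38, 39 and 41. All groups overlapped. Ctr shRNA 19, at 68.0 FPKM, was the only one of its group within the control range. The differences were 0.36 ± 0.16 between the shRNA groups (limma, adjusted p = 0.613), -0.42 ± 0.18 for Ctr shRNA against control (limma, adjusted p = 0.166) and -0.06 ± 0.18 for the libraries labelled Gcgr shRNA against control (limma, adjusted p = 0.899). Without Ctr shRNA 19 the difference between Ctr shRNA and control was -0.54 (limma, adjusted p = 0.0395), and without Ctr shRNA 20 it was -0.29 and that between the shRNA groups 0.23 (limma, adjusted p = 0.236 and 0.732).

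Bsnd, the subunit that basolateral chloride channels need to reach the membrane, did not pass the test in any comparison with all libraries weighted equally. Bsnd (ENSMUSG00000025418, chromosome 4, 106483456 to 106492283, minus strand) had 16.2, 20.6 and 25.4 FPKM in the libraries labelled Gcgr shRNA and 13.3, 17.9 and 29.8 FPKM in Ctr shRNA (lowest, median, highest). Control 37, 38, 39 and 41 had 23.96, 20.98, 22.5 and 24.8 FPKM. The other 5 Ctr shRNA libraries lay under the lowest control at 13.3 to 20.6 FPKM, while Ctr shRNA 20, at 29.8 FPKM, was the highest of all. The difference between Ctr shRNA and control was -0.31 ± 0.16 (limma, adjusted p = 0.266) with this library and -0.44 ± 0.12 without it (limma, adjusted p = 0.0394). It also passed with all libraries under sample weights (-0.38, limma, adjusted p = 0.0347) and without both Ctr shRNA 20 and Gcgr shRNA 31 (limma, adjusted p = 0.0286). Between the shRNA groups it was 0.15 ± 0.14 (limma, adjusted p = 0.867) and 0.28 ± 0.11 without that library (limma, adjusted p = 0.552). Markers of principal cells, a cell type of the collecting duct, summed to 1004 FPKM in Ctr shRNA 20 and to 172 to 276 FPKM in the other Ctr shRNA libraries. Those of the thin limb summed to 605 FPKM in Ctr shRNA 20 and to 77.0 to 154 FPKM in the others. The part of either in the Bsnd value was not tested. Against control, the libraries labelled Gcgr shRNA differed in Bsnd by -0.16 ± 0.16 (limma, adjusted p = 0.662).

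None of the 3 claudins passed the test in any comparison. Cldn10 (ENSMUSG00000022132, chromosome 14, 118787908 to 118875489, plus strand) had 37.9, 46.1 and 66.0 FPKM in the libraries labelled Gcgr shRNA and 41.9, 55.0 and 60.5 FPKM in Ctr shRNA (lowest, median, highest). It had 39.02, 48.6, 44.6 and 53.3 FPKM in control 37, 38, 39 and 41. It was the single member whose mean was highest in Ctr shRNA, where 5 of 6 libraries lay above the control median. The differences were -0.15 ± 0.13 between the shRNA groups (limma, adjusted p = 0.859), 0.20 ± 0.15 for Ctr shRNA against control (limma, adjusted p = 0.448) and 0.06 ± 0.15 for the libraries labelled Gcgr shRNA against control (limma, adjusted p = 0.886).

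Cldn16 (ENSMUSG00000038148, chromosome 16, 26463135 to 26482765, plus strand) had 8.5, 9.57 and 14.1 FPKM in the libraries labelled Gcgr shRNA and 4.48, 6.41 and 10.98 FPKM in Ctr shRNA (lowest, median, highest). Control 37, 38, 39 and 41 had 7.397, 6.38, 8.25 and 7.53 FPKM. All 7 libraries labelled Gcgr shRNA lay above the highest control library, while Ctr shRNA spanned the control range on both sides. The difference of the libraries labelled Gcgr shRNA was 0.48 ± 0.16 against Ctr shRNA (limma, adjusted p = 0.475) and 0.40 ± 0.18 against control (limma, adjusted p = 0.281). For Ctr shRNA against control it was -0.08 ± 0.18 (limma, adjusted p = 0.830), and 0.02 without Ctr shRNA 20. These values rest on 99 to 269 reads per library, the fewest of any member. Cldn19 (ENSMUSG00000066058, chromosome 4, 119255414 to 119262438, plus strand) had 5.48, 6.40 and 8.62 FPKM in the libraries labelled Gcgr shRNA and 2.79, 6.27 and 7.06 FPKM in Ctr shRNA, against 6.67, 4.98, 7.34 and 8.72 FPKM in control 37, 38, 39 and 41. The groups overlapped, and the low end of Ctr shRNA came from libraries 4 (3.84 FPKM) and 6 (2.79 FPKM). Its differences were 0.31 ± 0.17 between the shRNA groups (limma, adjusted p = 0.733), -0.32 ± 0.20 for Ctr shRNA against control (limma, adjusted p = 0.352) and -0.01 ± 0.19 for the libraries labelled Gcgr shRNA against control (limma, adjusted p = 0.983).

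Both genes of secreted products fell in Ctr shRNA against control, and Egf had the lowest adjusted p of the 9 genes. Egf (ENSMUSG00000028017, chromosome 3, 129677565 to 129755316, minus strand) had 42.8, 62.1 and 81.9 FPKM in the libraries labelled Gcgr shRNA and 30.0, 40.6 and 70.0 FPKM in Ctr shRNA (lowest, median, highest). Control 37, 38, 39 and 41 had 79.7, 101, 97.3 and 95.1 FPKM. Every Ctr shRNA library lay under every control library, and 5 of the 7 libraries labelled Gcgr shRNA did so too. Egf fell by 1.09 ± 0.20 in Ctr shRNA against control (limma, adjusted p = 0.00318), to 0.481 times the control mean, and its adjusted p lay between 0.000397 and 0.0159 under all 26 alternatives. The libraries labelled Gcgr shRNA differed by 0.53 ± 0.17 from Ctr shRNA (limma, adjusted p = 0.453) and by -0.56 ± 0.19 from control (limma, adjusted p = 0.156), a value that passed under 1 alternative, sample weights (limma, adjusted p = 0.0318).

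Umod (ENSMUSG00000030963, chromosome 7, 119462711 to 119479282, minus strand) had 602, 694 and 887 FPKM in the libraries labelled Gcgr shRNA and 283, 504 and 749 FPKM in Ctr shRNA (lowest, median, highest). Control 37, 38, 39 and 41 had 774, 704, 903 and 1007 FPKM. All 6 Ctr shRNA libraries were below the control median, and the groups overlapped through Ctr shRNA 19, at 749 FPKM, and control 38. Umod fell by 0.77 ± 0.21 in Ctr shRNA against control (limma, adjusted p = 0.0335), to 0.611 times the control mean, and by 0.61 without Ctr shRNA 20 (limma, adjusted p = 0.0352). The call ended without Ctr shRNA 4 or 6 (limma, adjusted p = 0.0609 and 0.0666) and without control 37, 38, 39 or 41 (limma, adjusted p = 0.0698, 0.0512, 0.102 and 0.0897). The libraries labelled Gcgr shRNA differed by 0.52 ± 0.18 from Ctr shRNA (limma, adjusted p = 0.491) and by -0.24 ± 0.20 from control (limma, adjusted p = 0.589). Umod rested on 14752 to 44700 reads per library, so counting error is small beside the spread between libraries.

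Ppp1r1a (ENSMUSG00000022490, chromosome 15, 103530279 to 103538003, minus strand) had 78.7, 109 and 156 FPKM in the libraries labelled Gcgr shRNA and 45.7, 95.6 and 101 FPKM in Ctr shRNA (lowest, median, highest). It had 115, 103, 131 and 152 FPKM in control 37, 38, 39 and 41. All Ctr shRNA libraries lay under all control libraries, by a margin of 101 against 103 FPKM, yet the difference of -0.57 ± 0.22 missed the threshold (limma, adjusted p = 0.113). The libraries labelled Gcgr shRNA differed by 0.41 ± 0.19 from Ctr shRNA (limma, adjusted p = 0.659), by 0.24 without Ctr shRNA 20 (limma, adjusted p = 0.758), and by -0.16 ± 0.21 from control (limma, adjusted p = 0.752). In RNA of whole kidney, fewer thick ascending limb cells and less RNA of these genes per cell cannot be told apart. Neither can RNA of the same genes from other cell types, for this or any other member.

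**Figure D2:**
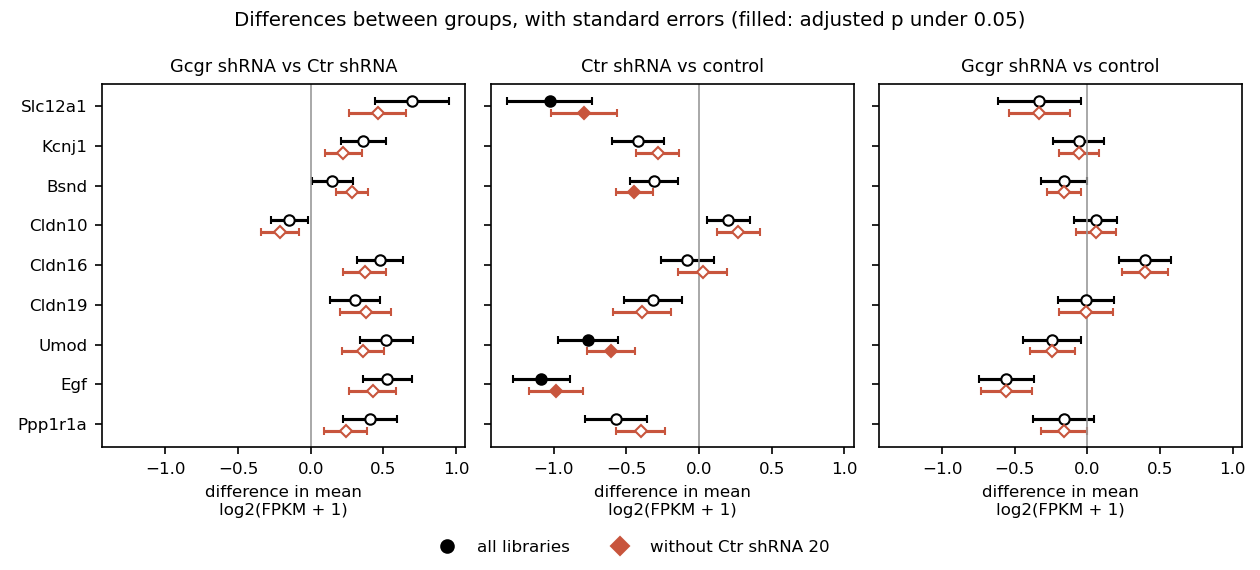
Differences in mean log2(FPKM + 1) between groups (horizontal axis) with standard errors, from limma over all genes, for all 17 libraries (black circles) and without Ctr shRNA 20 (diamonds); filled marks have an adjusted p under 0.05. In the middle panel Egf (-1.09), Slc12a1 (-1.03) and Umod (-0.77) are filled, Bsnd is filled without the library only, and no mark is filled in the outer panels.

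The first comparison asks what the hairpin labelled Gcgr shRNA goes with inside the DKD label. Of the 9 members, 8 had a mean log2 level above that of Ctr shRNA in the libraries labelled Gcgr shRNA, with Cldn10 the exception, and none of the 9 passed the adjusted threshold. At an unadjusted p under 0.05, 6 of 9 were higher (Slc12a1, Kcnj1, Cldn16, Umod, Egf and Ppp1r1a) and 0 lower, where 4.1% of all 13279 genes tested were higher. The median difference of the members was 0.41, and that of all genes tested was -0.00. Over all genes, 0% passed the adjusted threshold in either direction with limma-trend, 0 with limma voom on recovered reads, and 544 were higher and 428 lower at an unadjusted p under 0.05. Without Ctr shRNA 20, 6 of 9 members again had an unadjusted p under 0.05, with Bsnd and Cldn19 in place of Kcnj1 and Ppp1r1a, where 3.51% of the 13183 genes then tested were higher, and the median was 0.36.

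Related genes gave no call in this comparison in any list. Of 10 tested genes of basolateral transport and exchangers, 8 had a difference above 0, among them Kcnj10, a basolateral potassium channel (0.44 ± 0.12, limma, adjusted p = 0.330). Of 17 tested hormone receptors, kinases and other genes listed as acting on salt transport, 13 were above 0. Gcgr (0.40) and Wnk4, a kinase that acts on the distal salt carriers (0.23), led by p. Of 13 transcription factors of the loop and distal nephron, 10 were above 0, led by Tfap2b (0.44 ± 0.10, limma, adjusted p = 0.172) and Pou3f3 (0.28). Of 13 tested further thick ascending limb markers, 11 were above 0 with a median of 0.26, led by Tmem72 (0.45 ± 0.10, limma, adjusted p = 0.172) and Tmem52b (0.35). Other tight junction genes were at 5 of 12 above 0 with a median of -0.03, which turned to 0.03 without Ctr shRNA 20, led by Cldn1 (0.14, limma, adjusted p = 0.815).

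No gene in the marker lists of other cell types passed between the shRNA groups, and many of these medians moved with Ctr shRNA 20. The median over genes of the distal convoluted tubule was 0.12, and 0.11 without that library. The same medians were 0.10 and 0.04 for the proximal tubule, 0.23 and 0.13 for intercalated cells, and 0.03 and 0.06 for leukocytes. The single macula densa marker was at 0.20. Opposite in sign to the members, tubular injury genes were below 0 in 11 of 12 (median -0.22, and -0.11 without that library), endothelial markers in 7 of 7 (-0.20, and -0.07), thin limb markers in 5 of 6 (-0.39, and -0.17) and podocyte markers in 4 of 5 (-0.06, and -0.04). The medians of principal cells (-0.26), fat (-0.67) and urothelium (-0.56) were above 0 without that library (0.05, 0.14 and 0.17). For urothelium these medians cover different genes, 4 tested with that library and 2 without it. The part of other cell types in the members' values was not tested.

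The second comparison sets the DKD label with Ctr shRNA beside control kidney. Of the 9 members, 3 fell and 0 rose: Egf, Umod and Slc12a1. Over all genes, 3.91% passed as lower (519 genes, beside 475 higher). Of the 9 differences, 8 were below 0, with a median of -0.42, against 0.01 for all genes tested. Egf and Ppp1r1a were the 2 members with every Ctr shRNA library under every control library, which held for 5.41% of all genes tested (719 genes). Without Ctr shRNA 20, 4 members passed, Bsnd joining, with a median of -0.40, where 464 of the 13183 genes then tested passed as lower.

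Other genes of the limb and of its transport pathway fell too, in part. Of the 10 basolateral and exchanger genes, 3 fell, among them the apical sodium-proton exchanger Slc9a3 (-0.49, limma, adjusted p = 0.0333) and Kcnj10 (-0.51, limma, adjusted p = 0.0372, and 0.0601 without Ctr shRNA 20). Of the 17 receptors, kinases and other genes acting on salt transport, 4 fell, namely Gcgr (-1.04), Wnk4 (-0.51), Casr and Klhl3. Casr, the calcium-sensing receptor that restrains transport in this segment, was at -0.83 ± 0.19 (3.76 ± 1.44 against 7.19 ± 0.844 FPKM, limma, adjusted p = 0.0141). Klhl3, an adaptor for the breakdown of WNK kinases, was at -0.48 (limma, adjusted p = 0.0330, and 0.0520 without Ctr shRNA 20). Of the 13 transcription factors, 3 fell, Tfap2b (-0.47), Pou3f3, which loop formation needs in mice (-0.49), and Irx1 (-0.86 ± 0.25, limma, adjusted p = 0.0476). Of the 13 further markers, 3 fell, Tmem72 (-0.58), Tmem52b (-0.58) and Fgf1, a fibroblast growth factor (-0.54), with a median of -0.48 over the list. Of the 12 other tight junction genes, 1 rose, Cldn1 (0.59 ± 0.12, 4.16 ± 0.452 against 2.42 ± 0.277 FPKM, limma, adjusted p = 0.00762), and the list's median was 0.17.

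Markers of other segments moved in the same comparison. As lower in Ctr shRNA, 5 of 12 proximal tubule markers passed (median -0.40), 3 of 7 of the distal convoluted tubule (-0.45), 3 of 7 of principal cells (-0.22) and 5 of 8 of intercalated cells (-0.57). Without Ctr shRNA 20 the counts were 3 for the proximal tubule, 2 for the distal convoluted tubule, 3 for principal cells, whose median was then -0.55, and 4 for intercalated cells. None of 6 thin limb, 5 podocyte, 7 endothelial, 4 fat or 4 urothelial markers passed, nor did the single macula densa marker tested. As higher, 3 of 4 leukocyte markers passed, led by the macrophage lysozyme Lyz2 (1.30 ± 0.23, 36.4 ± 10.6 against 13.8 ± 3.14 FPKM, limma, adjusted p = 0.00255), and 5 of 12 tubular injury genes, led by Cdkn1a, a cell cycle inhibitor (23.1 ± 4.41 against 2.29 ± 0.493 FPKM). Summed leukocyte markers ranged over 161 to 404 FPKM in Ctr shRNA and 126 to 159 FPKM in control, and the part of such shifts in the values of the 9 members was not tested.

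The third comparison sets the libraries labelled Gcgr shRNA beside control, and 0 of the 9 members passed. Over all genes, 0.595% passed as lower (79 genes) and 189 genes passed as higher, or 97 lower and 139 higher with limma voom on recovered reads. Of the 9 differences, 7 were below 0, with a median of -0.16, against -0.00 for all genes. Cldn16 alone among the members had an unadjusted p under 0.05 as higher, which held for 8.8% of all genes. It was also the 1 member with every library labelled Gcgr shRNA above every control library, which held for 3.31% of all genes (439). Egf alone had an unadjusted p under 0.05 as lower, which held for 7.4% of all genes.

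In the lists, 0 of 10 basolateral and exchanger genes passed here, with the apical exchanger Slc9a3 at -0.30. Of the 13 transcription factors and 13 further markers, 0 passed, with medians of -0.17 and -0.18. Of 17 receptors, kinases and other genes acting on salt transport, Gcgr fell (-0.64 ± 0.14), and of 12 tight junction genes Cldn1 rose (0.74 ± 0.12, limma, adjusted p = 0.00302). Of the other segments, 1 of 12 proximal tubule, 0 of 7 distal convoluted tubule, 3 of 7 principal cell and 2 of 8 intercalated cell markers fell, while 2 of 4 leukocyte markers and 4 of 12 tubular injury genes rose. Without Ctr shRNA 20, which is in neither group but in the shared fit, 2 of those 17 genes and 2 proximal tubule markers fell. Both comparisons with control share the same 4 control libraries, and the first 2 share Ctr shRNA, so their values for a member are not independent of each other.

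Within the groups the libraries differed more for some than for others. Taken over the 9 members relative to the control means, Ctr shRNA 20 was lowest (mean -0.91 on the log2 scale), followed by Ctr shRNA 6 (-0.70), and Ctr shRNA 19 was nearest to control in its group (-0.08). The libraries labelled Gcgr shRNA lay between -0.40 (library 13) and 0.08 (library 35). In library 20 the deviation reached -2.21 for Slc12a1 and 0.36 for Bsnd. Ctr shRNA 6, by contrast, was low in 8 of 9 members, with Cldn10 at 0.39 above the control mean. Cldn16 was the highest member in 6 of the 7 libraries labelled Gcgr shRNA, up to 0.85 in library 31.

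**Figure D3:**
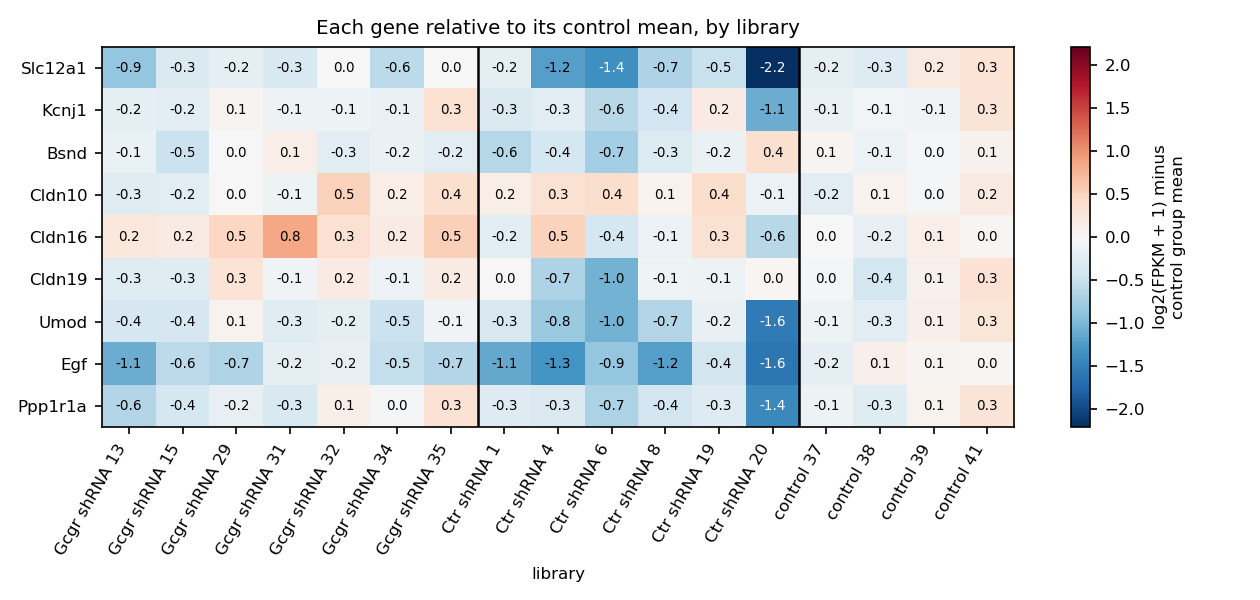
Deviation of each gene from its control mean (log2(FPKM + 1), colour scale and printed value) in each of the 17 libraries, with lines between the groups. Ctr shRNA 20 is darkest for Slc12a1 (-2.21), the Egf row is negative in every library of both shRNA groups, and the Cldn16 row is positive in all 7 libraries labelled Gcgr shRNA.

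With each group's mean taken off, 4 members followed the mean of the other 8 closely across the 17 libraries, with Pearson's r of 0.86 for Umod, 0.85 for Kcnj1, 0.81 for Ppp1r1a and 0.80 for Slc12a1. Cldn16 (0.57), Cldn10 (0.53), Egf (0.52) and Cldn19 (0.33) followed it less, and Bsnd went the other way (-0.23). Without Ctr shRNA 20, Bsnd was at 0.43 and Cldn19 at 0.75. Over the 36 pairs of members the median was 0.45, with the highest value for Slc12a1 and Umod (0.91). These are descriptions, as the genes share libraries, tissue composition and depth. The 5 genes outside the members whose pattern was most like their mean were Irx2, an Iroquois transcription factor (0.90), Ppic (0.89), Gpx6 (0.89), Nudt4 (0.87) and Ppp1r1b, a relative of Ppp1r1a that inhibits the same phosphatase (0.86), and they were at 0.79 to 0.85 without Ctr shRNA 20. Of these, Ppic had 57.0 ± 7.72 FPKM in the libraries labelled Gcgr shRNA, 40.3 ± 12.0 FPKM in Ctr shRNA and 75.2 ± 9.51 FPKM in control. Gpx6 had 14.2 ± 3.24, 7.62 ± 2.80 and 18.98 ± 4.71 FPKM in the same groups, and Nudt4 had 185 ± 23.8, 164 ± 27.3 and 165 ± 15.2 FPKM. Against control, Ctr shRNA differed by -0.53 for Irx2, -0.93 for Ppic, -1.25 for Gpx6, -0.87 for Ppp1r1b and only -0.02 for Nudt4. Likeness with the group means taken off thus did not extend to this group difference for Nudt4.

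Ratios between members within a library do not depend on its scaling. Cldn10 over Slc12a1 had a median of 0.392 (0.319 to 0.509) in the libraries labelled Gcgr shRNA, 0.737 (0.391 to 1.32) in Ctr shRNA and 0.292 (0.257 to 0.391) in control. In Ctr shRNA it thus covered a wide range, whose low end, library 1, touched the high end of control, and its median was 0.565 without library 20. Egf over Kcnj1 had a median of 1.19 (0.776 to 1.498), 0.963 (0.732 to 1.32) and 1.60 (1.30 to 1.77) in the same groups. Cldn16 over Umod had a median of 0.0137 (0.0118 to 0.0203) in the libraries labelled Gcgr shRNA and 0.0130 (0.00933 to 0.0231) in Ctr shRNA, against 0.00910 (0.00748 to 0.00956) in control. All 7 libraries labelled Gcgr shRNA lay above the control range in this ratio. Most of Ctr shRNA did so too, with only its lowest library (0.00933) inside that range. The ratios were chosen after the values were seen and were not tested.

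**Figure D4:**
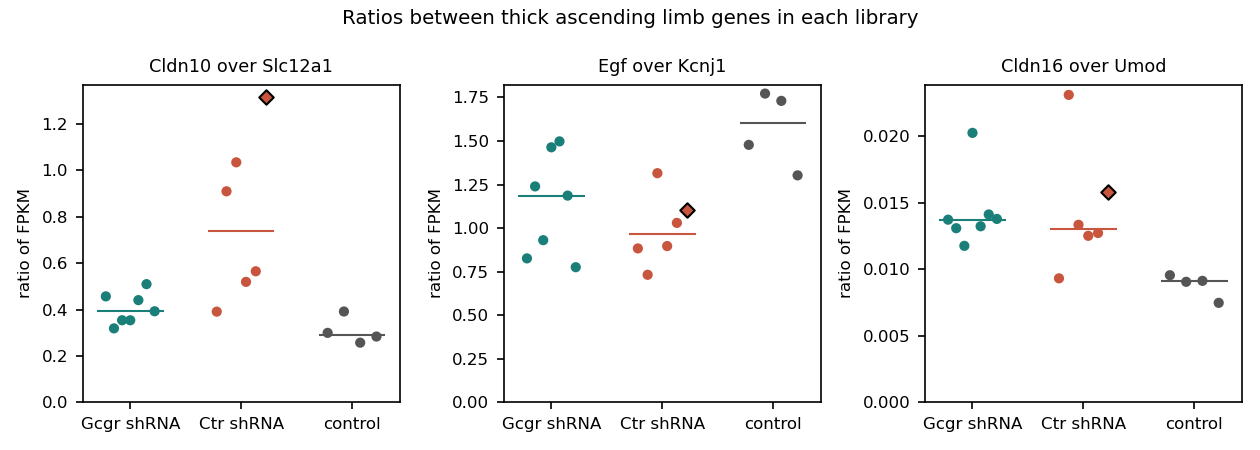
Ratios of FPKM within each library (vertical axes, linear, from 0) for 3 pairs of members in the groups labelled Gcgr shRNA, Ctr shRNA and control, with lines at the group medians and an outlined diamond for Ctr shRNA 20. Cldn16 over Umod is at 0.0118 to 0.0203 in the libraries labelled Gcgr shRNA, all above the control libraries at 0.00748 to 0.00956. Ctr shRNA is at 0.00933 to 0.0231, with only its lowest library inside the control range.

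Other annotated genes overlap 4 of the members, and without knowledge of strand their reads could be counted either way. They are an antisense gene over Slc12a1 (at most 0.329 FPKM), a 5S RNA copy within Cldn10 (1.01), Gm12927 over Cldn19 (up to 5.92) and 4 genes over Egf (up to 4.11, Gm24515). The level of Gm12927, at 0 to 5.92 FPKM, comes near that of Cldn19 at its highest. The recovered reads of Gm12927 were not set beside those of Cldn19, and the effect on the Cldn19 values was not tested.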

How the data were processed

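Total RNA of mouse kidney was taken up in Trizol, and a SMARTER mRNA-Seq kit was used for the libraries, as the labels' protocols state. Per the file headers, the deposited table gives FPKM for each gene in each library, beside gene length and position. The submitters' processing notes list GRCm38 and mm10, names of 1 mouse build. The sources used here do not give the aligner, counter, annotation or strand setting. Of 42741 table IDs found in a GRCm38 annotation (GENCODE M21), 41932 (98.1%) had the same place. The table held 42794 complete lines, and 1 incomplete line was left out. FPKM times gene length gave whole multiples of a step per library in 100% of low values (up to 200 steps, tolerance 0.05), from which reads were recovered. Pairs of replicates had a chi-square over degrees of freedom of 6.61 to 68.9, above sampling noise, so each library counted as 1 replicate.

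Values were transformed to log2(FPKM + 1), which understates changes of low genes, and 13279 genes with at least 1 FPKM in 4 or more libraries were tested with limma 3.58.1 (limma-trend, R 4.3.3), all 3 groups in 1 fit, with Benjamini-Hochberg adjustment over all genes at 0.05. All 9 members passed that filter. For Gcgr an exact two-sided permutation test was used. The members and Gcgr are named always, with up to 4 passing genes per list by smallest p, or up to 2 where none passed, and the 5 genes most like the members' mean. Some genes are not reported here. The members, the 17 gene lists, the 6 motifs and the ratios were chosen with earlier results of these data known, so agreement among them is no independent support. Alternatives were a pseudocount of 0.1, no filter, a mean of at least 5 FPKM, upper quartile scaling, limma voom on recovered reads, robust empirical Bayes, sample weights, 2 groups only, each library left out, and Ctr shRNA 20 and Gcgr shRNA 31 left out together. The steps were tested on simulated data.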

Additional observations from a re-analysis of the deposited data

Results flagged for a closer look

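Among 57 groups of values checked for a library far from the others of its group, 5 had one, and chance flags about 1 group in 20. Kcnj1 was at 73.0 FPKM in control 41, where the other control libraries had 53.9 to 56.8 FPKM. The remaining 4 were sums of marker genes of other cell types. Ctr shRNA 20 had 1004 FPKM for principal cell markers (172 to 276 in the other Ctr shRNA libraries), 691 FPKM for fat markers (10.02 to 29.7) and 176 FPKM for urothelium markers (1.24 to 6.60). Gcgr shRNA 31 had 389 FPKM for distal convoluted tubule markers, against 239 to 302 FPKM in the other libraries labelled Gcgr shRNA, and it was also the library with the highest Cldn16 (14.1 FPKM) and Bsnd (25.4 FPKM) in that group. Thin limb markers, not among the 5, were also high in Ctr shRNA 20, at 605 FPKM against 77.0 to 154 FPKM in the other Ctr shRNA libraries. The part of these sums in the members' values was not tested.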

How the results depend on the processing

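Of 702 values of single members under alternatives, 669 kept direction and side of the threshold, 17 lost a call, 5 gained one and 11 changed sign. Genes called between the libraries labelled Gcgr shRNA and Ctr shRNA were 0, but 1 with a pseudocount of 0.1, with a mean of at least 5 FPKM or with the 2 groups only, and 0 to 3 without single libraries (3 without Gcgr shRNA 13, 2 without Ctr shRNA 20, 1 without control 38 or 39). For Ctr shRNA against control 994 genes were called, 597 without a filter, 2087 with sample weights and 456 to 1264 without single libraries (659 without Ctr shRNA 4, and 487, 477 and 456 without control 37, 38 and 39). For the libraries labelled Gcgr shRNA against control 268 were called, 155 without a filter, 154 with a mean of at least 5 FPKM, 1070 with sample weights, 438 with the 2 groups only and 103 to 348 without single libraries (165 and 170 without Gcgr shRNA 13 and 35, and 131, 105 and 103 without control 37, 38 and 39). Members called in Ctr shRNA against control were 3, but 1 without a filter (Egf), 1 with the 2 groups only (Egf), 4 with sample weights or without both Ctr shRNA 20 and Gcgr shRNA 31 (Bsnd gained) and 1 to 4 without single libraries (1 without Ctr shRNA 4 or 6 or any 1 control library, 4 without Ctr shRNA 19 or 20). In the libraries labelled Gcgr shRNA against control 0 were called, but 1 with sample weights (Egf). Between the shRNA groups 0 members were called under all 26 alternatives. The causes were not tested.

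Sign changes concerned values near 0. Cldn16 in Ctr shRNA against control was at 0.024 without Ctr shRNA 20, alone or with Gcgr shRNA 31, and ranged over -0.202 to 0.024 without single libraries. In the libraries labelled Gcgr shRNA against control the ranges without single libraries were -0.127 to 0.036 for Kcnj1 (above 0 without control 41), -0.022 to 0.124 for Cldn10 (below 0 without Gcgr shRNA 32 or control 37) and -0.140 to 0.094 for Cldn19 (above 0 without Gcgr shRNA 13, 15 or 34 or control 39 or 41, and 0.027 with sample weights). No paired analysis was possible because the numbers in the titles are not shared between groups.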
